A study of Mus musculus with 4 samples.

Results

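The DNA replication genes are 44 genes whose products license origins, unwind DNA, copy it, supply deoxynucleotides, and restore DNA methylation and nucleosomes behind the fork. They were chosen by gene symbol among 18194 genes named on a pair of Affymetrix array designs, and were represented by 76 of 22690 probe sets on MOE430A and by 19 of 22575 on MOE430B. RNA of mouse lung at E18.5 was hybridised to 4 arrays, 1 per genotype on each design. The wild type group was labelled BALB/c, and the other group was labelled BALB/c and null for both Myf5 and Myod1, the regulators that together are needed for skeletal muscle to form; it is called double knockout below. The title of the series names the role of skeletal muscle in lung development as its subject. Pooling of embryos is not stated in the labels, nor is whether both arrays of a genotype took the same RNA. With 1 array per genotype and design there was no replicate and no test could be made, and this small number of arrays limits the precision.

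Replication starts at origins, where the origin recognition complex, Cdc6 and Cdt1 load the Mcm2 to Mcm7 ring as an inactive helicase. Cdc45 and the GINS complex turn that ring into the active helicase, and primase and the polymerases copy the unwound strands while Pcna, loaded by the Rfc complex, holds the polymerase on DNA. Many of these genes are transcribed when cells enter S phase, under E2F transcription factors, so their messenger RNA is known as a mark of dividing cells. In the fetal lung shortly before birth, dividing cells belong to several lineages.

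On MOE430A, 30 of the 34 replication genes that passed the filter had a lower signal in the array labelled double knockout than in the array labelled wild type. Among all 7658 genes measured on that design, 48.7% were lower. At least 1.5-fold lower were 12 of the 34, against 6.29% of all genes, and at least 2-fold lower were 3, against 1.78% of all genes. The 3 were Orc6, Mcm3 and Uhrf1. Among the 12, Orc6, Uhrf1 and Prim2 passed only through the array labelled wild type, so their direction was fixed. Mcm3 was under 2-fold by its other passing probe sets. Higher were 4, against 51.3% of all genes, and none of them by 1.5-fold or by 2-fold, against 6.23% and 1.76% of all genes. The members of the helicase were the group with the lowest median. Those of nucleotide supply and origin licensing came next with nearly equal medians, and their order changed with the processing. The clamp loader had values on both sides of 0. In RNA from whole tissue, fewer cells of a type and less RNA per cell cannot be told apart. Here and below a fold is the ratio of the signals of the 2 arrays of 1 design, and a log2 ratio is that of double knockout over wild type, so that a value below 0 is lower in the array labelled double knockout. A probe set passed where at least 1 array gave it the median signal of its design or more, and a gene was read by its brightest passing probe set.

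The promoters of 5 members are shown because they hold, or lack, an E2F motif. They are RefSeq windows of GRCm38.p6, from 250 bases before to 50 bases after an annotated start, printed on the gene's strand. The letter strings TTTGGCGC, TTTCCCGC, TTTCGCGC and TTTGCCGC were taken as E2F motifs, and capitals mark them on either strand in the first 4 windows. In the last one capitals mark a CCAAT box, read on the opposite strand, because no E2F string was found there. The windows lie at chr1:20820263-20820562 (minus strand) for Mcm3, chr5:138171834-138172133 (minus strand) for Mcm7, chr17:56304063-56304362 (plus strand) for Uhrf1, chr7:13278576-13278875 (plus strand) for Lig1 and chr2:132253131-132253430 (minus strand) for Pcna. Mcm7 and Uhrf1 had 2 windows each and Lig1 had 3, and the window printed is the one that holds an E2F string. Mcm3, Mcm7, Uhrf1 and Pcna were lower in the array labelled double knockout and Lig1 was slightly higher, and the 5 were picked after their values were seen.
Mcm3: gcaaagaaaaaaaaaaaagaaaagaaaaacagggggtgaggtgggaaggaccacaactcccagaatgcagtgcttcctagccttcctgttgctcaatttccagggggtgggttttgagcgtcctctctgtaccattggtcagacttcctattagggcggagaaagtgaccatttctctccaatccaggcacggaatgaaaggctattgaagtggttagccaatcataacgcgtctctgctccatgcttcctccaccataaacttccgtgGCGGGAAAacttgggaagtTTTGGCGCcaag
Mcm7: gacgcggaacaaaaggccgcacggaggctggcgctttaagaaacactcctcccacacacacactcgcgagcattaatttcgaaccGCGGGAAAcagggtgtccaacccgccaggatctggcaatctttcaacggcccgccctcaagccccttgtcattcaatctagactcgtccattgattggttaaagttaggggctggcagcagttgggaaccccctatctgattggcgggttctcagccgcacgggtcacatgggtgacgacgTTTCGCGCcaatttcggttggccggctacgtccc
Uhrf1: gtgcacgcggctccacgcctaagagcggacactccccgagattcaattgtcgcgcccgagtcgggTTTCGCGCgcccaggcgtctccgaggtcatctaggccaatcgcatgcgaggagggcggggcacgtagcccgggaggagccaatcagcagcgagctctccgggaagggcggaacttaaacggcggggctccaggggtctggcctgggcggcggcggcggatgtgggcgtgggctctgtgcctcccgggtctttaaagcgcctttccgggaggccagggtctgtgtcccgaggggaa
Lig1: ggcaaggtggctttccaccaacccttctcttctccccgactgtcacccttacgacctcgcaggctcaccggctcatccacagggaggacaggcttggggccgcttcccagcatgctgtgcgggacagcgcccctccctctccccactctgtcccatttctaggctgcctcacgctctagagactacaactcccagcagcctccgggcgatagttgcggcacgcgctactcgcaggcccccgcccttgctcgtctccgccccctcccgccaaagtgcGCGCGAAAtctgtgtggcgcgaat
Pcna: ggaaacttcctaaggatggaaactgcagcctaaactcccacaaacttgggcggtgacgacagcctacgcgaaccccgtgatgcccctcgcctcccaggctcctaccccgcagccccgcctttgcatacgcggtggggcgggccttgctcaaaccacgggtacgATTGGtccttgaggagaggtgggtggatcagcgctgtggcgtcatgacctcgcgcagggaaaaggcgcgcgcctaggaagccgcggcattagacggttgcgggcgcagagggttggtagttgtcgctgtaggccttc

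An E2F string stood in a window of 14 of the 37 members that have one, or 37.8%, against 2.605% of the 27025 genes with a window (2.26% of all 32851 windows) and 4.84% of the 6216 genes measured on MOE430A that have a window. The 14 were Cdc6, Cdt1, Dnmt1, Lig1, Mcm3, Mcm5, Mcm6, Mcm7, Orc1, Pola1, Pold1, Pole2, Rfc3 and Uhrf1. Of the helicase members with a window, 4 of 7 held the string, and of those of nucleotide supply 0 of 6. The CCAAT box stood in windows of 23 of the 37 members, or 62.2%, against 41.1% of all genes in the table. The CHR string TTTGAA, an element of mitotic promoters, stood in 5 of the 37, or 13.5%, against 20.2% of all genes. All strings were searched on both strands. The E2F strings contain neither of the other 2, but E2F matches on opposite strands can overlap, as they do in the windows of Mcm5 and Mcm6.

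The 10 members measured on MOE430A whose windows hold an E2F string had a median log2 ratio of -0.65, from -1.31 to 0.21, and 9 of the 10 were lower. The 19 without the string had a median of -0.34, from -1.36 to 0.25, and 17 of them were lower. The ranges overlapped over nearly all of their length. With a CCAAT box the median was -0.62 over 18 members, and without it -0.27 over 11. Pcna and Orc6, with some of the lowest ratios, had no E2F string, and Lig1, with 1 string, was among the 4 members that were higher. A match of these letters describes the window and says nothing of what binds it.

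**Figure D1:**
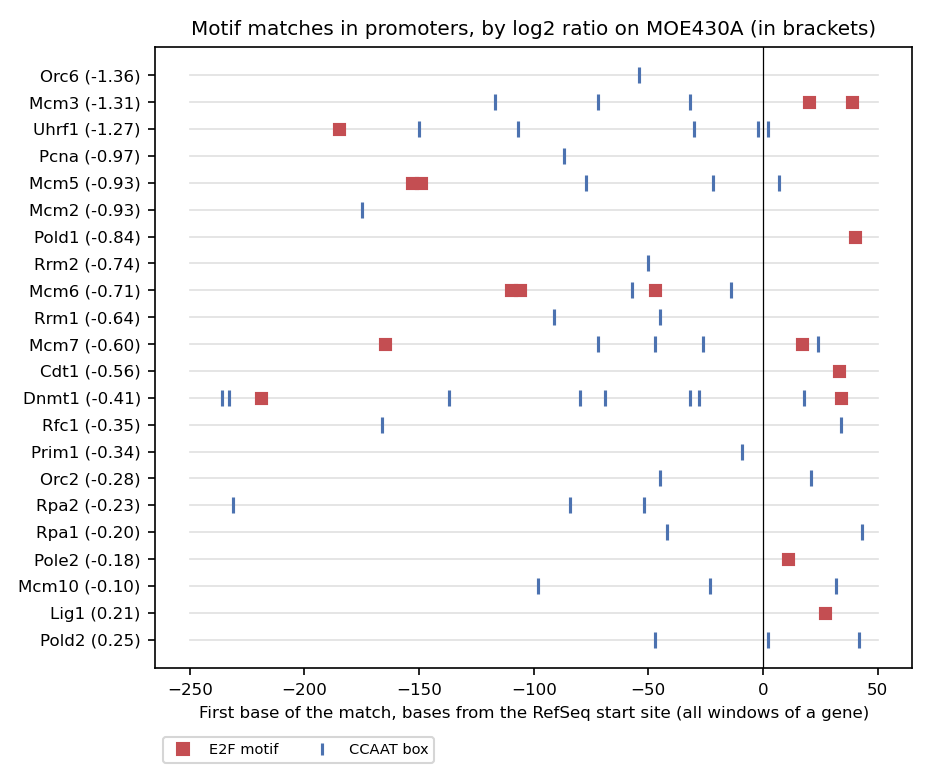
Positions of E2F strings (squares) and CCAAT boxes (bars) in the RefSeq promoter windows of those members measured on MOE430A that hold either, in bases from the annotated start, with all windows of a gene on 1 line and genes ordered by log2 ratio, lowest at the top. E2F strings are seen near the top and near the bottom of the order, from Mcm3 at -1.31 to Lig1 at 0.21.

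The labels were checked on the targeted genes. The Myod1 probe set on MOE430A read 85.0 on the array labelled wild type and 1081 on that labelled double knockout, against the labels, and the Myod1 probe set on MOE430B read 337.2 and 607.2, also against them. The Myf5 probe set read 110.5 and 8.94, both below the floor of 284.5. The sources used here do not locate these probe sets in or outside the deleted parts, so every direction rests on the labels. The ratios of 3' to 5' control probe sets were alike in the arrays, from 0.746 to 0.845 for Gapdh and from 1.01 to 1.06 for Actb. The 18S ribosomal RNA controls gave more signal under the double knockout label, 3.91-fold on MOE430A and 3.13-fold on MOE430B (medians over 3 probe sets), and their part in the results was not tested. In place of a replicate error, the log2 ratios of 100 probe sets common to MOE430A and MOE430B implied an SD of 0.24 for a single ratio, and passing probe sets of 1 member gene on MOE430A spread with an SD of 0.36. By the first of these, 24 of the 34 members on MOE430A were lower by more than 1 SD and 15 by more than 2, against 22.0% and 9.28% of all genes there. That SD compares the designs and cannot give the spread between embryos. None of its probe sets was a member's, and it leaves out a mean shift of 0.22 between the designs, so these counts are no test.

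Of the 44 genes, 34 passed on MOE430A and 9 on MOE430B, 5 of them on both. Cdc45, Cdc6, Pole, Rfc3 and Ung had probe sets but passed on neither design, and Chaf1a had no probe set of its own. Of the 34 genes on MOE430A, 29 passed through both arrays and 5, Gins1, Orc6, Prim2, Rfc4 and Uhrf1, passed only through the array labelled wild type, so these 5 had to be lower. None passed only through the array labelled double knockout. Among the 53 passing probe sets, 14 passed only through the array labelled wild type, and of the 38 that passed through both arrays 34 were lower. Without any filter, 34 of 42 genes with a probe set on MOE430A were lower and 13 at least 1.5-fold lower, with a median of -0.37. In that setting 42.0% of all genes were lower and 6.41% at least 1.5-fold lower, with a median of 0.00.

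**Figure D2:**
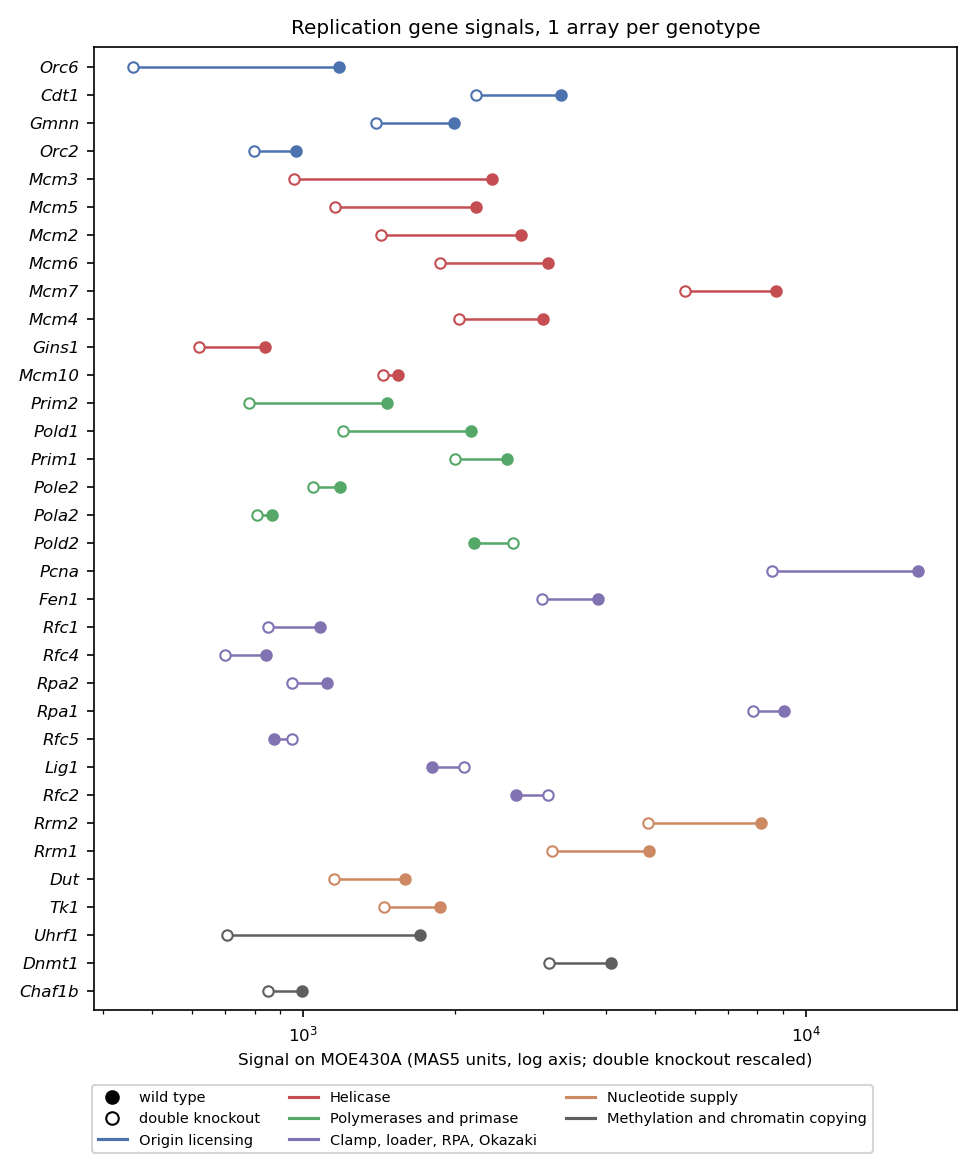
Signals of the 34 replication genes on MOE430A on a log axis, in MAS5 units, filled for the array labelled wild type and open for the array labelled double knockout after rescaling, coloured by role. The open symbol lies to the left of the filled one for 30 of the 34 genes, and to the right for Pold2, Rfc5, Lig1 and Rfc2.

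On MOE430A the 6 genes of the Mcm2 to Mcm7 ring, the motor of the replicative helicase, were all lower under the double knockout label, and 5 of them at least 1.5-fold. Mcm3 read 2376 on the array labelled wild type and 957.7 on that labelled double knockout, 2.48-fold lower. Its other passing probe sets gave log2 ratios of -0.71 and -0.69, so the size of the difference for Mcm3 rests on the choice of probe set. Mcm5 read 2201 and 1157, 1.90-fold lower, and Mcm2 read 2716 and 1428, also 1.90-fold lower (1.53-fold by its other probe set). These 3 had the lowest ratios of the ring. Mcm6 read 3062 and 1873, 1.63-fold lower. Mcm7, the brightest of the ring's probe sets, read 8708 and 5749, 1.51-fold lower. Mcm4, at 2998 and 2037, was 1.47-fold lower, and 2.12-fold by a dimmer probe set. All 14 passing probe sets of the ring were lower there, from -1.31 to -0.13, where 50.4% of all passing probe sets of 1 gene on the design were lower. Of these 14, 5 passed only through the array labelled wild type and had to be lower, among them the dimmer ones of Mcm3 and Mcm4. The other 9 were lower too.

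The factors that start the helicase had smaller differences on MOE430A than the ring's representing probe sets, a gap that was not tested. Gins1, a subunit of GINS, read 838.2 and 619.8, a log2 ratio of -0.44. Mcm10, a scaffold of the starting helicase, read 1542 and 1438, a log2 ratio of -0.10, inside the SD of 0.24. Cdc45, the partner of the ring in the active helicase, read 739.8 and 756.3, both below the filter of 789.2. Gins2 was read only on MOE430B, where its difference was as large as those of Mcm4 and Mcm7 on MOE430A: it was 1.56-fold lower by 1 probe set (4413 and 2838) and 1.51-fold lower by the other (2804 and 1861). The helicase group as a whole had a median of -0.65 over 8 genes on MOE430A, all lower.

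Of the licensing genes that mark and load origins, 4 passed on MOE430A, all were lower, and their median was -0.54. Orc6, the smallest subunit of the origin recognition complex, read 1178 and 458.8, 2.57-fold lower, the lowest log2 ratio of all members measured there, at -1.36, with 0.992% of all genes lower still. Cdt1, which brings the Mcm ring to origins, read 3258 and 2207, with log2 ratios of -0.56 and -0.50 by its 2 passing probe sets. Gmnn, geminin, the inhibitor of Cdt1, was lower by nearly the same amount, at 1995 and 1392, a log2 ratio of -0.52. Orc2, another subunit of the complex, read 966.9 and 796.8, a log2 ratio of -0.28, while its dimmer probe sets, below the filter, read 0.06 and 0.59. Cdc6, the loader that acts with Cdt1, stayed below the filter at 516.1 and 153.3. Orc1, the largest subunit, went the other way, with 210.5 and 409.5 on MOE430A, both below the filter, and 5074 and 7921 on MOE430B, 1.56-fold higher.

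Among the polymerases and primase, 5 of 6 genes on MOE430A were lower and 2 at least 1.5-fold, with a median of -0.26. Pold1, the catalytic subunit of polymerase delta, which copies the lagging strand, read 2156 and 1202, 1.79-fold lower, and its dimmer probe set gave 1.80-fold. That dimmer probe set passed only through the array labelled wild type and had to be lower. Pold2, a second subunit of the same enzyme, read 2190 and 2613, a log2 ratio of 0.25, so that the subunits of polymerase delta differed in direction. Prim2, the large subunit of primase, was 1.88-fold lower at 1466 and 780.3, but 1.46-fold higher by a dimmer probe set at 566.0 and 828.4. Prim1, the catalytic subunit of primase, read 2538 and 2006, a log2 ratio of -0.34. The 2 remaining genes lay near 0, Pole2, of polymerase epsilon, at -0.18 and Pola2, of polymerase alpha, at -0.10. Pola1, the catalytic subunit of polymerase alpha, read 707.3 and 505.0 on MOE430A, below the filter. The only Pole probe set read 59.6 and 53.1, below the floor.

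The clamp, its loader and the proteins around them were the group with values nearest to 0 on MOE430A, with a median of -0.23 over 9 genes. With a gene's median over its probe sets, polymerases and primase were nearer to 0, at -0.18. Pcna, the sliding clamp, was the exception in the clamp group and the brightest of all member probe sets, at 16679.5 on the array labelled wild type and 8540.3 on that labelled double knockout, 1.95-fold lower. The clamp loader did not follow it. Rfc1 had a log2 ratio of -0.35, Rfc4 -0.27, Rfc5 0.12 and Rfc2 0.21, and Rfc3 stayed below the filter with -0.23 and 0.26 by its probe sets. The 4 measured loader genes had a median of -0.08, and by the representing probe sets their range did not overlap that of the Mcm2 to Mcm7 ring, from -1.31 to -0.56. Over all passing probe sets the ranges overlapped, since those of the ring reached -0.13. Both of these subsets were picked after their values were seen, and their difference was not tested. Rpa1 and Rpa2, which coat single-stranded DNA, had -0.20 and -0.23. Fen1, the nuclease that trims Okazaki fragments, was 1.29-fold lower by its brighter probe set (3848 and 2989) and 2.63-fold lower by its dimmer one (1423 and 541.3). The dimmer one passed only through the array labelled wild type and had to be lower. Lig1, the ligase that seals the fragments, read 1806 and 2087, 1.16-fold higher.

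All 4 measured genes of nucleotide supply were lower on MOE430A, with a median of -0.55 and 2 at least 1.5-fold lower. Rrm2, the small subunit of ribonucleotide reductase, which makes deoxynucleotides in S phase, read 8124 and 4853, 1.67-fold lower, and its other probe sets gave 1.56-fold and 2.16-fold. Rrm1, the large subunit, read 4877 and 3130, 1.56-fold lower, and 1.32-fold by its other probe set. All 5 probe sets of the enzyme that passed were thus lower. Dut, which removes dUTP, had a log2 ratio of -0.47 (1594 and 1152), and Tk1, thymidine kinase, -0.37 (1872 and 1447). Tyms, thymidylate synthase, had 3 probe sets on MOE430A, all below the floor. A probe set named for both Tyms and its pseudogene Tyms-ps read 2091 and 1748, a log2 ratio of -0.26, which cannot be assigned to either. Ung, which cuts uracil out of DNA, read 627.7 and 561.7, below the filter.

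Genes that copy DNA methylation and nucleosomes were also lower on MOE430A, 3 of 3. Uhrf1, which recognises newly copied, hemimethylated DNA, read 1709 and 706.6, 2.42-fold lower, and 2.75-fold by its other probe set (1589 and 578.9). Both of its probe sets passed only through the array labelled wild type and had to be lower. Dnmt1, the maintenance methyltransferase that Uhrf1 recruits, was lower by less, at 4086 and 3083, with log2 ratios of -0.41 and -0.38 by its probe sets. Chaf1b, a subunit of the chromatin assembly factor CAF-1, had -0.22.

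**Figure D3:**
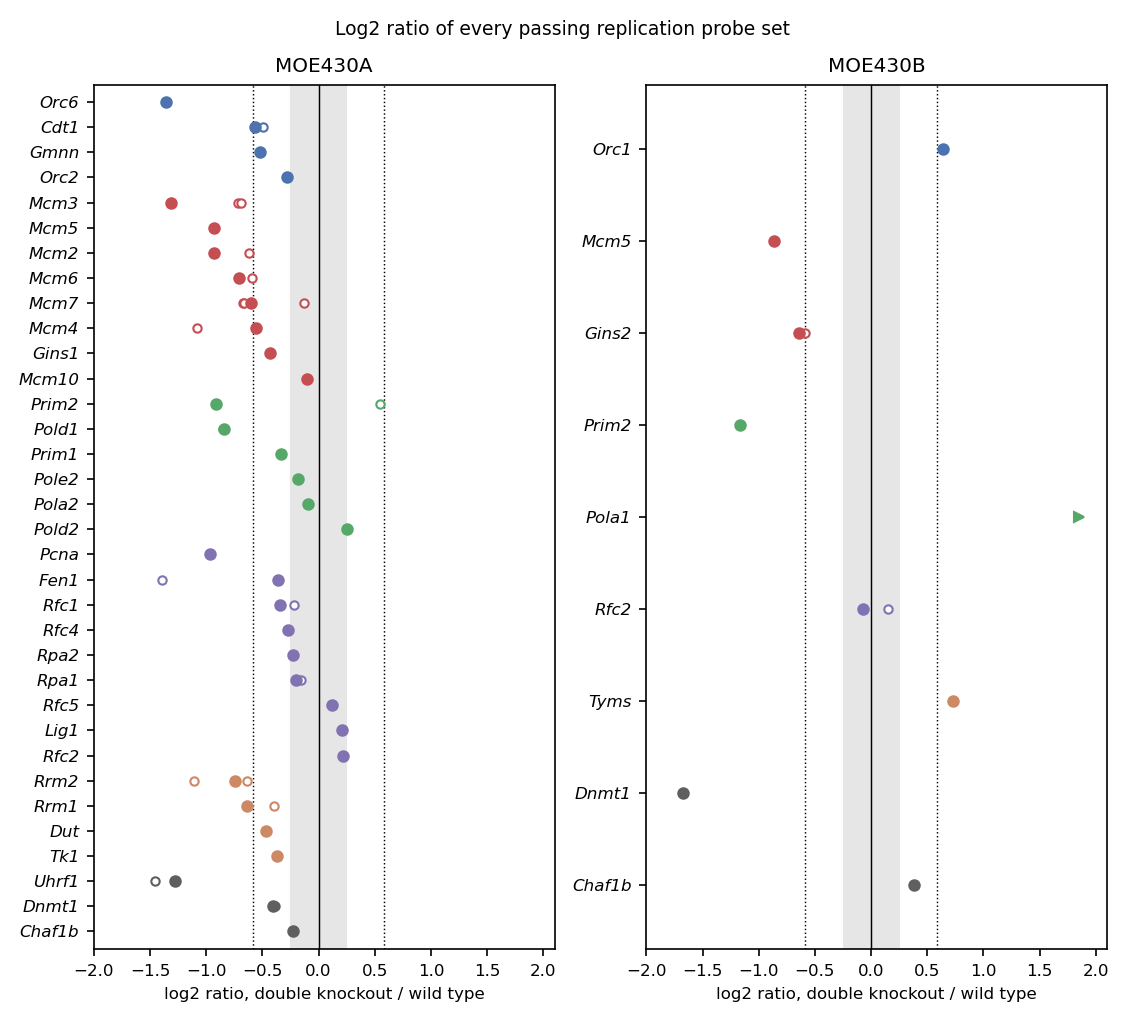
Log2 ratios of every passing probe set of the replication genes on each design, with the probe set that represents a gene filled and others open, coloured by role as in the plot of signals. The grey band is 1 SD of 0.24 either side of 0, dotted lines mark 1.5-fold, and the triangle is a lower bound. On MOE430A 48 of 53 points lie below 0, and on MOE430B 6 of 11.

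Of 15 member genes with several passing probe sets on MOE430A, 14 were lower by all of them and Prim2 was split. Part of this was fixed by the filter, since probe sets that passed through 1 array only had to differ, those of Prim2 in opposite directions. In 7 genes several probe sets passed through both arrays, namely Cdt1, Dnmt1, Mcm2, Mcm7, Rpa1, Rrm1 and Rrm2, and all 7 were lower by each of these. Among genes whose higher signal reached the 75th percentile of the design, 9 of 20 members were at least 1.5-fold lower, where 4.79% of all 4110 such genes were.

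On MOE430B the members gave no common direction. Of 9 genes that passed, 5 were lower and 4 higher, with a median of -0.07, where 54.0% of all 6728 genes on that design were lower and 46.0% higher. At least 1.5-fold lower were 4, against 14.0% of all genes, and at least 1.5-fold higher were 3, against 14.3%. At least 2-fold lower were 2, against 6.24%, and at least 2-fold higher was 1, against 7.09%. Mcm5 was read by another probe set there, at 14291.9 and 7861, 1.82-fold lower, close to its 1.90-fold on MOE430A. Dnmt1 was 3.18-fold lower (3846 and 1209) and Prim2 2.24-fold lower (1598 and 712.7), in the direction of their brighter probe sets on MOE430A. By these probe sets Prim2 passed only through the array labelled wild type on both designs, so it had to be lower on each. Chaf1b, at 0.38, and Rfc2, at -0.07 and 0.15 by its probe sets, differed in sign from MOE430A or straddled 0. Pola1 had a wild type signal of 226.4, below the floor of 279.1, and was at least 3.61-fold higher at 1009, and Tyms was 1.66-fold higher (560.6 and 931.7); both passed only through the array labelled double knockout and so had to be higher. With the floor at the median their log2 ratios were 0.23 and 0.12, under 1.5-fold. The signals of the 2 designs are not on 1 scale, ratios of the shared probe sets were a mean 0.22 lower on MOE430B, and no member was among them. Without probe sets ending in _s_at or _x_at, which may hybridise to other transcripts, the MOE430B median was 0.51 over 6 genes.

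**Figure D4:**
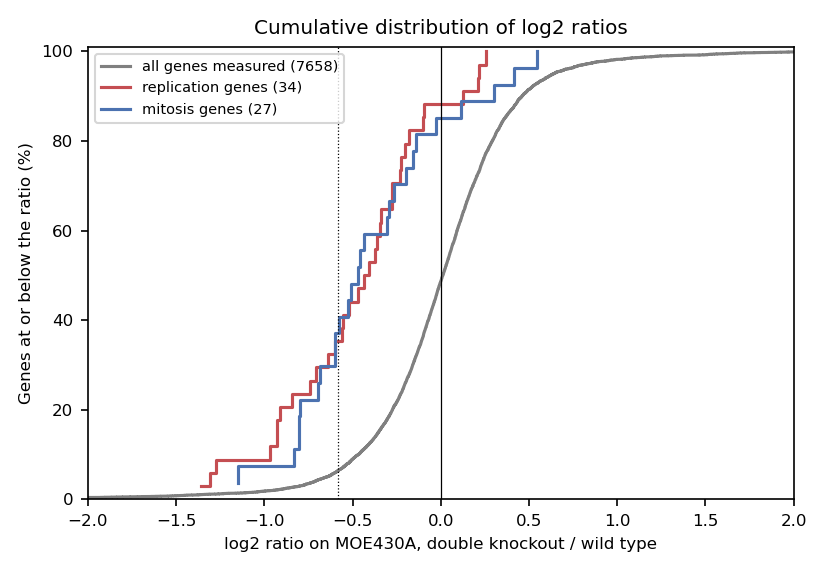
Cumulative share of genes at or below each log2 ratio on MOE430A, for all 7658 genes measured, the 34 replication genes and 27 genes of mitosis, with the dotted line at 1.5-fold lower. The replication and mitosis curves lie to the left of the curve of all genes, which crosses 0 at 48.7%.

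Replication genes outside the 44 were taken from wider lists of the pathway. Of 24 further fork and origin genes measured on MOE430A, 20 were lower, 3 at least 1.5-fold. Of the 24, 5 passed only through the array labelled wild type and had to be lower, and of the 19 that passed through both arrays 15 were lower. The median was -0.17, nearer to 0 than the -0.42 of the members, and that difference was not tested. Pclaf, a protein that binds Pcna, read 8727 and 3987, 2.19-fold lower, and Tipin, of the fork protection complex, was 1.57-fold lower. Orc3 and Gins4 went the other way, at 0.46 and 0.25. Of 10 chromatin assembly genes of S phase all were lower, 4 at least 1.5-fold, with a median of -0.40, among them Cdca7, a partner of the remodeller Hells, at -1.23 (1842 and 785.0) and Slbp, which binds histone messenger RNA, at -1.01 (4426 and 2203). Cdca7 passed only through the array labelled wild type and had to be lower, and the 9 that passed through both arrays were lower too. Slbp was 1.91-fold higher on MOE430B (1078 and 2056), in the opposite direction. Rbbp4 and Rbbp7, histone chaperones with roles outside S phase, were near 0 at -0.18 and -0.15. The 13 further genes of nucleotide supply mostly serve purine, pyrimidine and folate metabolism in all cells. They had a median of -0.04, with 7 lower and 6 higher. The lowest was Dck, at -1.84 with its double knockout signal below the floor. Dck passed only through the array labelled wild type and had to be lower. Impdh1 was at -0.47 and Ctps at -0.44, while Shmt1 was at 0.66 and Mthfd1 at 0.70 (-0.34 by another probe set of Mthfd1).

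The regulators of entry into S phase were mixed. Of 20 measured on MOE430A, 13 were lower and 5 at least 1.5-fold, with a median of -0.32. Only through the array labelled wild type passed 3 of them, and 1 only through the other array. Of the 16 that passed through both arrays, 10 were lower. Tfdp1, the partner that E2F factors need to bind DNA, read 2917 and 1996, a log2 ratio of -0.55, and Ccnd3, a D-type cyclin, had -0.42 there but 0.98 and -1.92 by its probe sets on MOE430B. Ccnd2, another D-type cyclin, was at 0.43, and Ccnd1 was at 0.13 with probe sets from -0.43 to 0.16. The 27 measured genes of mitosis included 23 that were lower and 10 at least 1.5-fold lower, against 48.7% and 6.29% of all genes. Their median was -0.47, close to the members' -0.42 over 34. Of the 27, 3 passed only through the array labelled wild type and had to be lower, and 1 only through the other array. Of the 23 that passed through both arrays, 20 were lower. Tpx2, a spindle assembly factor, was 2.22-fold lower and Mki67, the Ki-67 antigen of dividing cells, 1.78-fold lower, while Tpx2 on MOE430B was higher by both of its probe sets, at 0.23 and 0.15. Kif23, at 0.41, and Foxm1, at 0.30 and -0.18 by its probe sets, were not lower throughout. On MOE430B the mitosis genes had no common direction, with 3 lower and 4 higher of 7 and a median of 0.04. The further fork and origin genes had a median of -0.29 there, with 11 lower of 16. In promoter windows the lists differed, with an E2F string in 1 of 26 mitosis genes against 14 of 37 replication genes, and the CHR string in 18 of 26 against 5 of 37.

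Markers of thymocytes and T cells, many of which divide in the fetus, were lower in the same arrays as well. Of 22 markers, 13 were measured on MOE430A, all 13 were lower, 12 of them at least 2-fold, and their median was -2.94, with signals below the floor set to it. All 13 passed only through the array labelled wild type and so had to be lower. Without a filter, 17 of 19 were lower, 13 of them at least 2-fold, and none was higher. Their summed signal was 33627 on the array labelled wild type and 4285 on that labelled double knockout. Ptprc, the CD45 antigen, read 2874 and 308.0, Cd8b1 2636 and 301.3, Satb1 4578 and 596.3, and Cd8a 3247 and 603.3. None of the signals was at 0, since all deposited signals were above it. On MOE430B 5 of 5 such markers were lower with a smaller median, -0.94, and Cd8a and Satb1 were at -0.30 and -0.71 by their brightest probe sets there. That of Satb1 passed only through the array labelled wild type and had to be lower, and the other 4 markers passed through both arrays. Dimmer probe sets of Cd8a and Satb1 reached -2.70 and -2.14. The lung's own lineages had medians above 0. They were 0.49 over 11 alveolar epithelium markers, 0.22 over 9 mesenchyme markers and 0.10 over 8 endothelium markers. Of these lists 0, 2 and 0 genes were at least 1.5-fold lower, against 6.29% of all genes. At least 1.5-fold higher were 1, 2 and 1, against 6.23%. Mesenchyme markers were split, with 4 lower and 5 higher. Col1a1 was at -0.78 (0.04 by another probe set) and Dcn at -0.73, while Tcf21 was at 0.88 and Pdgfrb at 0.93. Erythroid markers, of another dividing lineage, had a median of -0.18 over 4 genes, from Slc4a1 at -1.34 through Alas2 at -0.56 to Epor at 0.84, 1 B lineage marker was measured, at 0.37, and cardiac muscle markers had 0.14 over 9 genes. Slc4a1 passed only through the array labelled wild type and the B lineage marker only through the other array, so their directions were fixed. The part of the thymocyte and T cell markers in the lower replication signals was not tested.

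**Figure D5:**
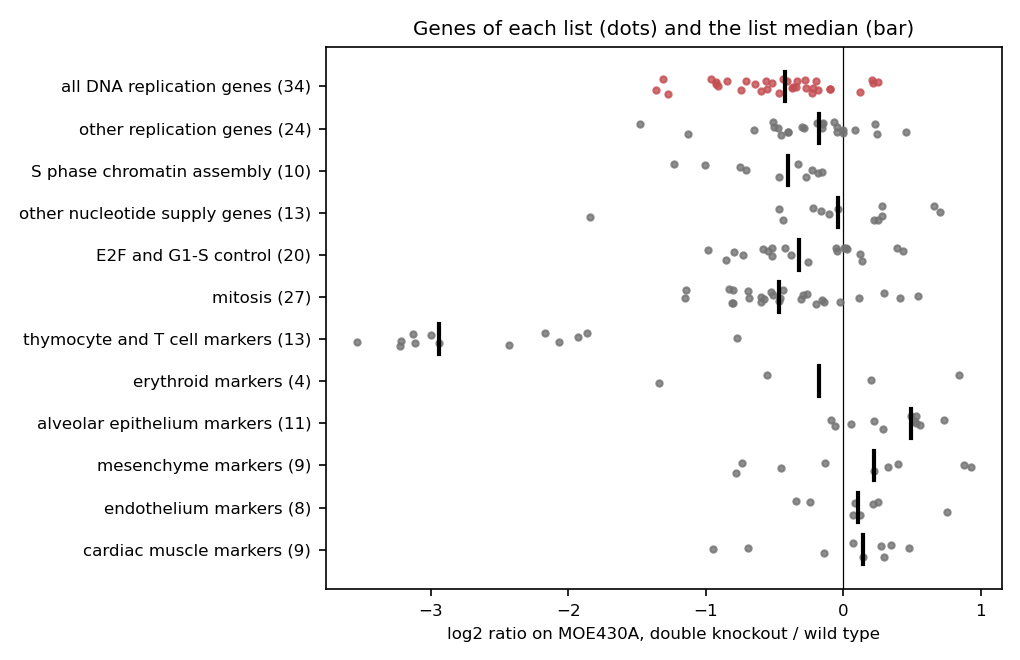
Log2 ratios on MOE430A of the genes of each list (dots, with the number measured in brackets) and the list median (bar). The replication genes spread from -1.36 to 0.25 around -0.42, the thymocyte and T cell markers from -3.54 to -0.77 around -2.94, and the markers of alveolar epithelium from -0.09 to 0.73 around 0.49.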

How the data were processed

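The authors deposited 1 signal per probe set and array, as an intensity on a linear scale. Per the submitters' processing notes the signals come from MAS5, and the sources used here give neither its version nor its settings; no detection call was used. The 2% trimmed mean of every array was 1500, so each had been scaled on its own, which assumes equal total signal in the genotypes. Dim signals are the least precise in MAS5, and ratios scatter more there. The 64 controls of each design were dropped. Division of the double knockout signals by 1.004 (MOE430A) and 1.008 (MOE430B) was used to bring the median ratio of passing probe sets to 1. The filter was the median signal of the design (789.2 and 858.2). Signals below the 25th percentile (284.5 and 279.1) were set to it, and a ratio with 1 signal below it is a lower bound. Genes were named through GEO's platform annotation, probe sets that name several genes were not used, and all 43 members with a probe set were matched by Entrez ID to RefSeq (GRCm38.p6). No count model applies, and no p-value is given. The genes shown are all members, the targeted genes, and the 2 highest and 2 lowest bright genes of each other list on MOE430A. Of the alveolar epithelium, endothelium and cardiac muscle lists, however, no single gene is named. Genes in the closing observations, the promoters printed, Slc4a1 and the MOE430B values of named genes were chosen after values were seen. Members and lists were chosen with earlier results of these data known. The steps were tested on simulated data, and 9 alternatives were run, with python 3.11.15.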

Additional observations from a re-analysis of the deposited data

How the results depend on the processing

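Under 9 alternatives (no rescaling, quantile normalization, a loess curve removed, a floor at the 10th percentile or at the median, all genes unfiltered, a filter at the 75th percentile, a gene's median over its probe sets, and no probe sets ending in _s_at or _x_at), the MOE430A median of the replication genes ran from -0.56 to -0.37 and 9 to 13 were at least 1.5-fold lower. The 9 were of 20 genes, with the filter at the 75th percentile. The 13 were of 42 genes without a filter and of 34 without probe sets ending in _s_at or _x_at. Of all genes on MOE430A, 4.44% to 6.41% were at least 1.5-fold lower under the alternatives. The count at least 2-fold lower on MOE430A was 1 instead of 3 with the filter at the 75th percentile, where 20 genes were left. On MOE430B the values moved more. The median was -0.75 over 4 genes with that filter and 0.51 over 6 without probe sets ending in _s_at or _x_at, against -0.07. The count at least 1.5-fold lower on MOE430B, 4 of 9, became 7 of 16 without a filter and 2 of 6 without those probe sets. Of all genes there, 13.9% and 14.2% were at least 1.5-fold lower in these 2 settings. The count at least 2-fold lower there, 2, became 4 without a filter and 1 with the floor at the median, the filter at the 75th percentile or without those probe sets. Shares of all genes at 2-fold were not computed under the alternatives. Fewer or more genes entered under these filters, and no other cause was tested. Of 387 values of single members, 22 could not be given, 13 moved by more than the SD of 0.24 and 1 changed sign (Rfc2 on MOE430B, 0.04 with the median over probe sets); none of those at least 1.5-fold did. Mcm3 was -0.71, Fen1 -1.39 and Mcm2 -0.62 without probe sets ending in _s_at or _x_at, Prim2 on MOE430A -0.18 with the median over probe sets, and Orc6 -0.58, Pola1 0.23 and Tyms 0.12 with the floor at the median. No paired analysis was possible because each genotype had 1 array per design.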

Other observations

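Some genes next to the replication genes in their pathways were named after their MOE430A values were seen. Of these Dck, Rif1 and Myc passed the filter only through the array labelled wild type and so had to be lower. Dck, deoxycytidine kinase, which salvages deoxynucleosides, read 1019 under the wild type label and 218.1 under the double knockout label, at least a 3.58-fold difference. Rif1, a regulator of replication timing, read 793.7 and 273.1, at least 2.79-fold lower, but its probe sets on MOE430B read -0.48 and 0.62. Among regulators of S phase entry, Myc, a transcription factor of growth, read 1054 and 532.3, 1.98-fold lower. Cdkn1b, the inhibitor p27 of cyclin-dependent kinases, and Rbl1, the p107 relative of the retinoblastoma protein, were lower as well, 1.81-fold and 1.74-fold.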
